A study of Mus musculus with 27 samples.

Results

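Mouse lacrimal glands collected 14 days after an injection of the cytokine IL-1α into the gland were compared with glands collected 5 days after the same injection, to describe which parts of the repair response were still present at day 14. The members were 6 of the 27 samples of the series, 3 glands at day 14 and 3 at day 5, chosen by the time point in their labels. Each gland came from a wild-type BALB/c mouse, labelled as 8 to 10 weeks old in every group (the methods of the study give a somewhat older range), and the mice of the day 14 and day 5 groups had received 1 µg of IL-1α. The controls were 3 glands collected 14 days after an injection of saline (day 14 saline) and 3 glands of mice that had received no injection (day 0). The study used 3 female mice per group, and a replicate is the gland tissue of a mouse, so the p-values below measure the spread between mice. Whole glands were sequenced as polyA RNA from stranded libraries, and each value is a normalized count, the estimated number of read pairs of a gene divided by a scaling factor of the library.

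The lacrimal gland makes the watery part of the tear film. Its acinar cells secrete proteins, myoepithelial cells wrap the acini, and ducts carry the fluid to the eye. IL-1α is an alarm cytokine released by damaged epithelium. It switches on adhesion molecules, chemokines and acute phase proteins, which bring neutrophils and then monocytes into the tissue. During repair of an exocrine gland, macrophages clear debris, epithelial and stromal cells divide, and fibroblasts lay down a provisional matrix of collagen, fibronectin and tenascin that is later crosslinked or removed by proteases. The secretory genes of the acinar cells are usually low while this goes on.

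The 6 libraries had similar depth, at 10.6 to 11.5 M estimated counts (M, 1e+06) at day 14 and 10.8 to 11.6 M at day 5. After the authors' scaling the totals differed, at 13.2 to 15.2 M at day 14 and 9.27 to 9.86 M at day 5, and the top 10 genes of a library took up 71.3% to 72.4% of its total at day 14 and 62.3% to 63.8% at day 5. The tissue label fitted the markers, since the summed level of 5 lacrimal acinar markers (*Aqp5*, *Bhlha15*, *Scgb2b20*, *Esp36*, *Pnliprp1*) was 73059 to 78190 at day 14, 32411 to 37988 at day 5, 72030 to 99990 in day 14 saline glands and 115896 to 129527 at day 0. No marker of acinar, fibroblast, endothelial, neutrophil, macrophage, parotid or muscle cells was at 0 in all libraries of a group. The 2 lymph node markers (*Ccl21a*, *Cr2*) were at 0 in all day 0 libraries. Their sum was 1.34, 2.44 and 16.2 in day 14 replicates 1, 2 and 3, 4.82 to 6.02 at day 5 and 1.23 to 2.30 in saline glands. The libraries also carried RNA of neighbouring tissues in amounts that varied within groups. The summed level of 3 parotid markers (*Bpifa2*, *Prb1*, *Amy1*) ran from 1371 to 276021 at day 14, from 311 to 187240 at day 5, from 103 to 185371 in saline glands and from 3471 to 194330 at day 0, and that of the 2 skeletal muscle markers from 25.6 to 896 at day 14, from 4.02 to 293 at day 5, from 7.37 to 97.5 in saline glands and from 10.3 to 209 at day 0.

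A gene was called where limma gave a Benjamini-Hochberg adjusted p of at most 0.05 and a difference of at least 2-fold between groups. Differences are given as log2(value + 1) of day 14 minus the other group, with the standard error (SE), and understate the change of genes near 0. Of 13762 genes tested, 901 (6.55%) were called between day 14 and day 5. The split was unequal, with 103 genes higher at day 14 (0.748%) and 798 lower (5.8%). In 2582 genes (18.8%) all 3 day 14 values lay above the 3 day 5 values, and in 2652 genes (19.3%) all lay below. All 3 lay above the 6 control values in 235 genes (1.71%) and below them in 236 (1.71%). When each library was scaled to its total instead, the median gene moved to a log2 difference of -0.57 and the calls became 41 higher and 2408 lower, so directions are given relative to the median gene. Leaving out each of the 6 libraries in turn gave 622 to 1059 calls. The lists of genes named below group genes by function. In each list, the count of called members is read against the percentages above.

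**Figure D1:**
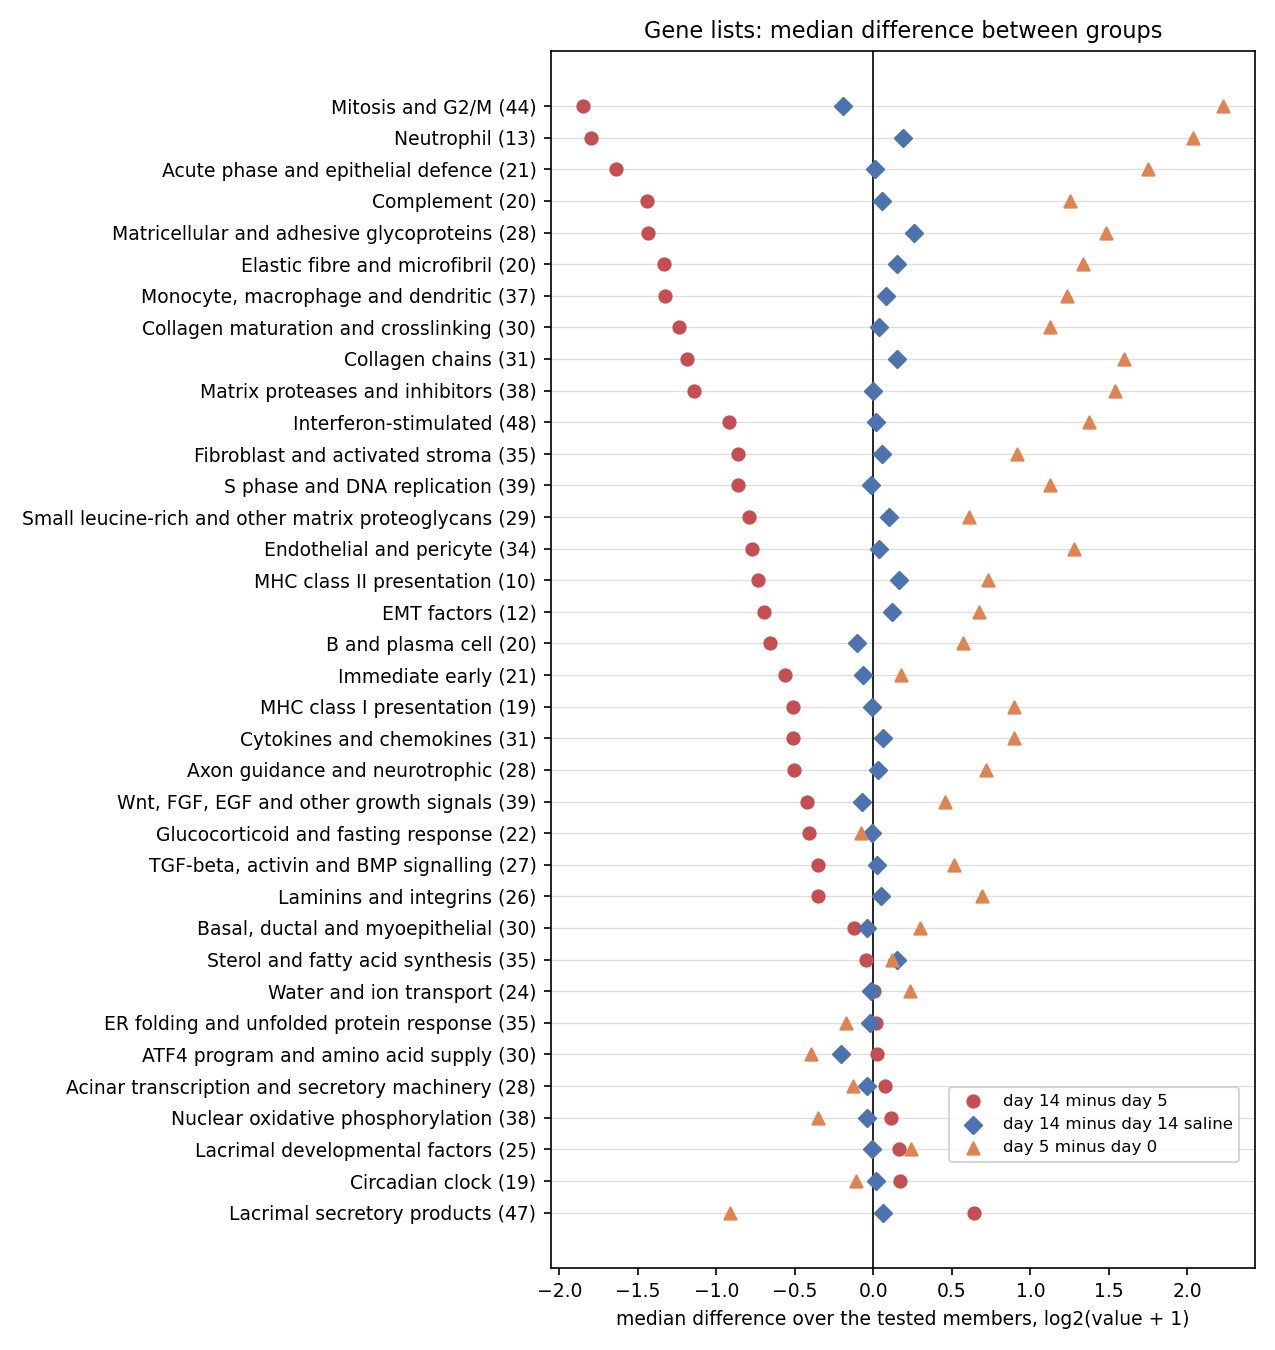
Median log2 difference of gene lists, without those of muscle, parotid, blood, nerve, fat, T and NK cells and neighbouring tissues (number of tested members in parentheses) for day 14 minus day 5 (circles), day 14 minus day 14 saline (diamonds) and day 5 minus day 0 (triangles), on the log2(value + 1) scale. For day 14 minus day 5 the medians of mitosis (-1.85), acute phase (-1.64), complement (-1.44), collagen (-1.19) and interferon-stimulated genes (-0.92) lie left of 0 and that of secretory products (0.64) lies right of 0, while the diamonds of the lists shown lie between -0.21 and 0.26.

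Genes of dividing cells were lower at day 14 in most of their mitotic members. Of 44 tested genes of mitosis and the G2/M transition, 29 were lower at day 14 than at day 5 and none was higher, with a median log2 difference of -1.85 against -0.01 over all genes. In 42 of the 44 the groups did not overlap. *Mki67* (chr7:135689784-135716361 in GRCm38, the proliferation marker Ki-67) measured 84.3, 47.5 and 81.02 at day 14, 278, 312 and 185 at day 5, 102, 87.2 and 48.4 in saline glands and 54.4, 44.6 and 54.6 at day 0. All day 14 values lay below all day 5 values and within the range of the 6 controls, and the log2 difference of day 14 from day 5 was -1.86 ± 0.40 (SE; limma, adjusted p = 0.00308). *Anln* (anillin, the scaffold of the cleavage furrow) measured 6.69, 3.66 and 16.2 at day 14 and 49.8, 55.6 and 55.9 at day 5, a log2 difference of -2.68 ± 0.50 (SE; limma, adjusted p = 0.00103). Again no day 14 value reached the day 5 range. *Aspm*, which organises spindle poles, measured 2.68, 3.66 and 4.99 at day 14, 24.9, 36.8 and 21.5 at day 5, 10.2, 9.83 and 4.60 in saline glands and 1.75, 5.72 and 5.20 at day 0, so that its day 14 values lay at the level of the controls. The count of 29 rested partly on single libraries: it was 19 without day 14 replicate 1, 19 without day 5 replicate 1, and 13 when genes had to reach a value of 50 to be tested.

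Genes of DNA replication moved less. In the S phase list 12 of 39 tested genes were lower at day 14 and none was higher, with a median log2 difference of -0.86, and the groups did not overlap in 26. *Mcm5*, a subunit of the replicative helicase, measured 20.1, 21.9 and 36.1 at day 14 and 69.1, 98.4 and 50.7 at day 5, a log2 difference of -1.44 ± 0.34 (SE; limma, adjusted p = 0.00556). The clamp *Pcna* changed by less than 2-fold, with 165, 136 and 171 at day 14 and 234, 269.8 and 229 at day 5. Its groups were separate nonetheless (log2 difference -0.63 ± 0.12). Without day 14 replicate 2 the S phase count was 7, and it was 5 under the filter at 50 and 30 when libraries were scaled to totals. At day 5 the same lists had stood above day 0 in 40 of 44 mitosis genes and 20 of 39 S phase genes, against 9.8% of all genes called higher at day 5 than at day 0, and none of their members was called lower. That comparison shares the day 5 libraries with day 14 against day 5. The mean day 14 level of *Mki67* differed from day 14 saline by -0.13 on the log2 scale, with a 95% interval of -0.96 to 0.69. Intervals of this kind lay within 2-fold of saline for 26 of 39 S phase genes and 10 of 44 mitosis genes, against 77.9% of all genes.

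The promoters of genes that act late in the cell cycle are known for a cell cycle homology region (CHR, searched as TTTGAA) that lies near CCAAT boxes (searched as CCAAT). Both were searched on both strands in the 250 bases before each RefSeq gene start (GRCm38.p6). CHR letters were present in 11 of 39 promoters found for the mitosis list (28.2%), in 5 of 31 for the S phase list (16.1%) and in 16.3% of 27025 promoters of the table. CCAAT was present in 29 of 39 (74.4%), 20 of 31 (64.5%) and 34.5%. The promoters of *Cdk1*, the mitotic kinase, and *Top2a*, the topoisomerase that untangles chromosomes, are printed to show how both motifs stand close to the start of genes that fell. They were chosen after their values were seen. Capitals mark the motifs on either strand, which do not overlap each other.
Cdk1 (chr10:69352913-69353162, minus strand): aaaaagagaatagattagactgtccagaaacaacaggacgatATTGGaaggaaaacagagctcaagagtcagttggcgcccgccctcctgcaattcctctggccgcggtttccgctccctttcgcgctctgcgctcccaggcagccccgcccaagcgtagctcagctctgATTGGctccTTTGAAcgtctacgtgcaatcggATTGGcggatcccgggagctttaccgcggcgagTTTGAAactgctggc
Top2a (chr11:99024190-99024439, minus strand): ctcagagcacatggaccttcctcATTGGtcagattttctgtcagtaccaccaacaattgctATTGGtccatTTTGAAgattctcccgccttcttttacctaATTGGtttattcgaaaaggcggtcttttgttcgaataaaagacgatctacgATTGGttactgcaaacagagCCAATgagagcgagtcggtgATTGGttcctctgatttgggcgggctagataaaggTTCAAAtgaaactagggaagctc
*Cdk1* measured 21.4, 17.1 and 21.2 at day 14 and 62.6, 86.4 and 42.97 at day 5, with separate groups and a log2 difference of -1.59 ± 0.40 (SE; limma, adjusted p = 0.00857). For *Top2a* the values were 57.6, 65.8 and 89.7 at day 14 and 178, 177 and 129.8 at day 5, a log2 difference of -1.19 ± 0.25 (SE; limma, adjusted p = 0.00324). A match says that the letters are present in the window, and binding was not measured.

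Collagen chain genes were lower at day 14. Of 31 tested, 17 were lower at day 14 and none was higher (median log2 difference -1.19), against 5.8% of all genes. *Col1a1* (chr11:94936224-94953042), a chain of type I collagen, measured 313, 384 and 1015 at day 14, 3089, 2351 and 4598 at day 5, 448, 443 and 352 in saline glands and 293, 416 and 313 at day 0. The groups of day 14 and day 5 were far apart, with a log2 difference of -2.70 ± 0.33 (SE; limma, adjusted p = 3.10e-05), but day 14 replicate 3 was above all 6 controls. *Col3a1* repeated this pattern, with 1433, 1466 and 3752 at day 14 and 12552, 9454 and 13673 at day 5 (log2 difference -2.56 ± 0.33, SE; limma, adjusted p = 3.93e-05). *Col5a1*, which sets fibril width, measured 77.7, 102 and 221 at day 14 and 665, 569 and 793 at day 5, a log2 difference of -2.46 ± 0.27. The basement membrane chain *Col4a1* had 295, 338 and 514 at day 14 and 642, 689.8 and 911 at day 5, a log2 difference of -0.99 ± 0.23 that missed the 2-fold limit. *Col7a1*, the anchoring fibril collagen under epithelia, went apart from the others: it measured 1190.2, 1349 and 1215 at day 14, 718, 1048 and 970.2 at day 5, 1045, 1239 and 1263 in saline glands and 267, 898 and 792 at day 0. It was called higher at day 14 than at day 0 (log2 difference 1.12 ± 0.30, SE; limma, adjusted p = 0.0307), with saline glands at the same height as day 14 glands, but only 2 of the 6 left-out libraries kept that call, and without day 0 replicate 1, the lowest library, its adjusted p was 0.135.

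Enzymes that mature and crosslink collagen were lower in 19 of 30 tested genes, with none higher (median -1.24). *Lox*, the lysyl oxidase that crosslinks collagen and elastin, measured 12.05, 28.03 and 39.9 at day 14, 234, 139 and 299 at day 5, 26.8, 24.6 and 16.1 in saline glands and 14.04, 21.7 and 19.5 at day 0. Day 14 and day 5 did not overlap, and the log2 difference was -3.10 ± 0.41 (SE; limma, adjusted p = 5.05e-05). Against the 6 controls, day 14 replicate 1 was lower than all and replicates 2 and 3 were higher than all. *P4ha3*, a subunit of prolyl 4-hydroxylase, was listed at 0, 0 and 1.25 at day 14 and at 16.1, 12.8 and 20.6 at day 5 (limma, adjusted p = 0.0028). Without day 14 replicate 1 the count of 19 was 12.

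Elastic fibre genes were lower in 12 of 20 (median -1.34) and matricellular and adhesive glycoproteins in 16 of 28 (median -1.44), with none higher in either list. *Fn1*, fibronectin of the provisional matrix, measured 281, 340.0 and 641 at day 14, 1438, 967 and 1639 at day 5, 246, 394 and 300.5 in saline glands and 353, 445 and 352 at day 0, a log2 difference from day 5 of -1.74 ± 0.30 (SE; limma, adjusted p = 5.42e-04). Its day 14 replicate 3 was above every control. *Postn* (periostin) measured 281, 295 and 526 at day 14 and 1549.9, 1109 and 999 at day 5, with a log2 difference of -1.76 ± 0.19 (SE; limma, adjusted p = 1.03e-05). *Tnc* (tenascin C, made in healing tissue) varied widely at day 14, with 4.02, 10.97 and 95.98 at day 14, 115, 163 and 481 at day 5, 11.5, 12.3 and 3.45 in saline glands and 0, 4.57 and 14.3 at day 0. Its log2 difference was -3.54 ± 0.88 (SE; limma, adjusted p = 0.00839), and the call was lost without day 14 replicate 1 (limma, adjusted p = 0.0699) and without day 5 replicate 3. *Mfap4*, a microfibril glycoprotein, stayed above the uninjured level: it measured 21.4, 26.8 and 57.3 at day 14, 197, 119.8 and 106 at day 5, 21.7, 18.4 and 10.4 in saline glands and 7.02, 13.7 and 10.4 at day 0. Its log2 difference from day 5 was -2.04 ± 0.38 (limma, adjusted p = 9.81e-04), and was higher at day 14 than at day 0 by 1.59 ± 0.38 (limma, adjusted p = 0.018). The difference from saline was 0.95 ± 0.38 (limma, adjusted p = 0.987). The call against day 0 was lost without day 14 replicate 3 and without day 0 replicate 1. Without day 14 replicate 1 the elastic fibre count was 7.

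Small leucine-rich and other matrix proteoglycans were lower at day 14 in 11 of 29 tested genes and higher in none (median -0.79). *Bgn* (biglycan, which binds collagen) measured 245, 267 and 436 at day 14, 1144, 843 and 1273 at day 5, 289.9, 317 and 251 in saline glands and 175, 277 and 219.7 at day 0, a log2 difference from day 5 of -1.81 ± 0.21 (SE; limma, adjusted p = 2.04e-05). *Aspn* (asporin) measured 10.7, 15.8 and 59.8 at day 14 and 138, 119 and 109 at day 5 (log2 difference -2.42 ± 0.46, SE; limma, adjusted p = 0.00123). Both had separate groups. Laminin and integrin genes, which anchor epithelium to its basement membrane, were called in 2 of 26, or 4 without day 14 replicate 3, all lower (median -0.35).

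Matrix proteases and their inhibitors were lower at day 14 in 20 of 38 tested genes and higher in none (median -1.14). *Adam12*, a metalloprotease of activated stroma, measured 5.36, 13.4 and 43.6 at day 14, 123, 109.6 and 141 at day 5, 12.8, 24.6 and 17.3 in saline glands and 19.3, 13.7 and 19.5 at day 0, a log2 difference from day 5 of -2.96 ± 0.46 (SE; limma, adjusted p = 2.27e-04). The day 5 values were tightly grouped and the day 14 values were not. *Mmp14*, the membrane protease that activates pro-MMP2, measured 96.4, 102 and 143 at day 14 and 341, 276 and 294 at day 5 (log2 difference -1.42 ± 0.18, SE; limma, adjusted p = 3.11e-05). All 3 day 14 values lay above the highest control, at 84.3, 92.1 and 87.5 in saline glands and 77.2, 92.6 and 63.7 at day 0. That held for 1 of the 38 genes of the list, against 1.71% of all genes. *Timp1*, an inhibitor of metalloproteases, measured 4.02, 1.22 and 7.48 at day 14 and 26.5, 15.4 and 237 at day 5 (log2 difference -3.38 ± 0.70, SE; limma, adjusted p = 0.0026), with day 5 replicate 3 far above the others. *Timp3* did not move by 2-fold, at 316, 372 and 358 at day 14 and 366, 362 and 394 at day 5.

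In the list of fibroblast and activated stroma genes 11 of 35 were lower and none was higher (median -0.86). *Lrrc15*, a marker of activated fibroblasts, had its highest values at day 5 among the 4 groups. It measured 1.34, 1.22 and 12.5 at day 14, 48.99, 73.6 and 92.8 at day 5, 1.28, 0 and 0 in saline glands and 1.75, 0 and 2.60 at day 0, a log2 difference of -4.10 ± 0.72 (SE; limma, adjusted p = 6.35e-04). *Fstl1*, a secreted follistatin-like glycoprotein of stroma, measured 181, 199 and 355 at day 14 and 1275, 863 and 1278 at day 5 (log2 difference -2.26 ± 0.25, SE; limma, adjusted p = 1.15e-05). Resident fibroblast genes moved less, with *Pdgfra* at 111, 119 and 136 at day 14 and 278, 175 and 252 at day 5, and *Dcn* (decorin) at 1304, 1559 and 1635 at day 14 and 2568, 1802 and 1908 at day 5. Neither was called. The summed level of 3 fibroblast markers (*Pdgfra*, *Col1a1*, *Dcn*) was 1728 to 2786 at day 14, 4328 to 6758 at day 5, 1639 to 2238 in saline glands and 1878 to 2641 at day 0. In these bulk samples, fewer cells of a type and less RNA per cell cannot be told apart, here and in every cell type below. Lower at day 14 were 3 of 27 genes of TGF-beta, activin and BMP signalling and 4 of 39 other growth signals, and none was higher. In the list of epithelial-mesenchymal transition (EMT) 3 of 12 genes were lower and none was higher. Over all genes, 5.8% were called lower. The first count was 6 without day 5 replicate 2, and the EMT count was 1 without day 14 replicate 1, day 14 replicate 2 or day 5 replicate 3. *Vim* (vimentin) measured 181, 201 and 352 at day 14 and 745, 637 and 1009 at day 5, a log2 difference of -1.74 ± 0.22 (SE; limma, adjusted p = 4.05e-05). Among the EMT transcription factors, *Snai1* measured 2.68, 2.44 and 1.25 at day 14 and 8.03, 9.41 and 6.02 at day 5 and was called (log2 difference -1.51 ± 0.51; limma, adjusted p = 0.0441), but its limma adjusted p was 0.0667 to 0.124 when any of the 6 libraries was left out. *Snai2* measured 18.7, 15.8 and 21.2 at day 14 and 22.5, 26.5 and 20.6 at day 5, with overlapping groups.

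**Figure D2:**
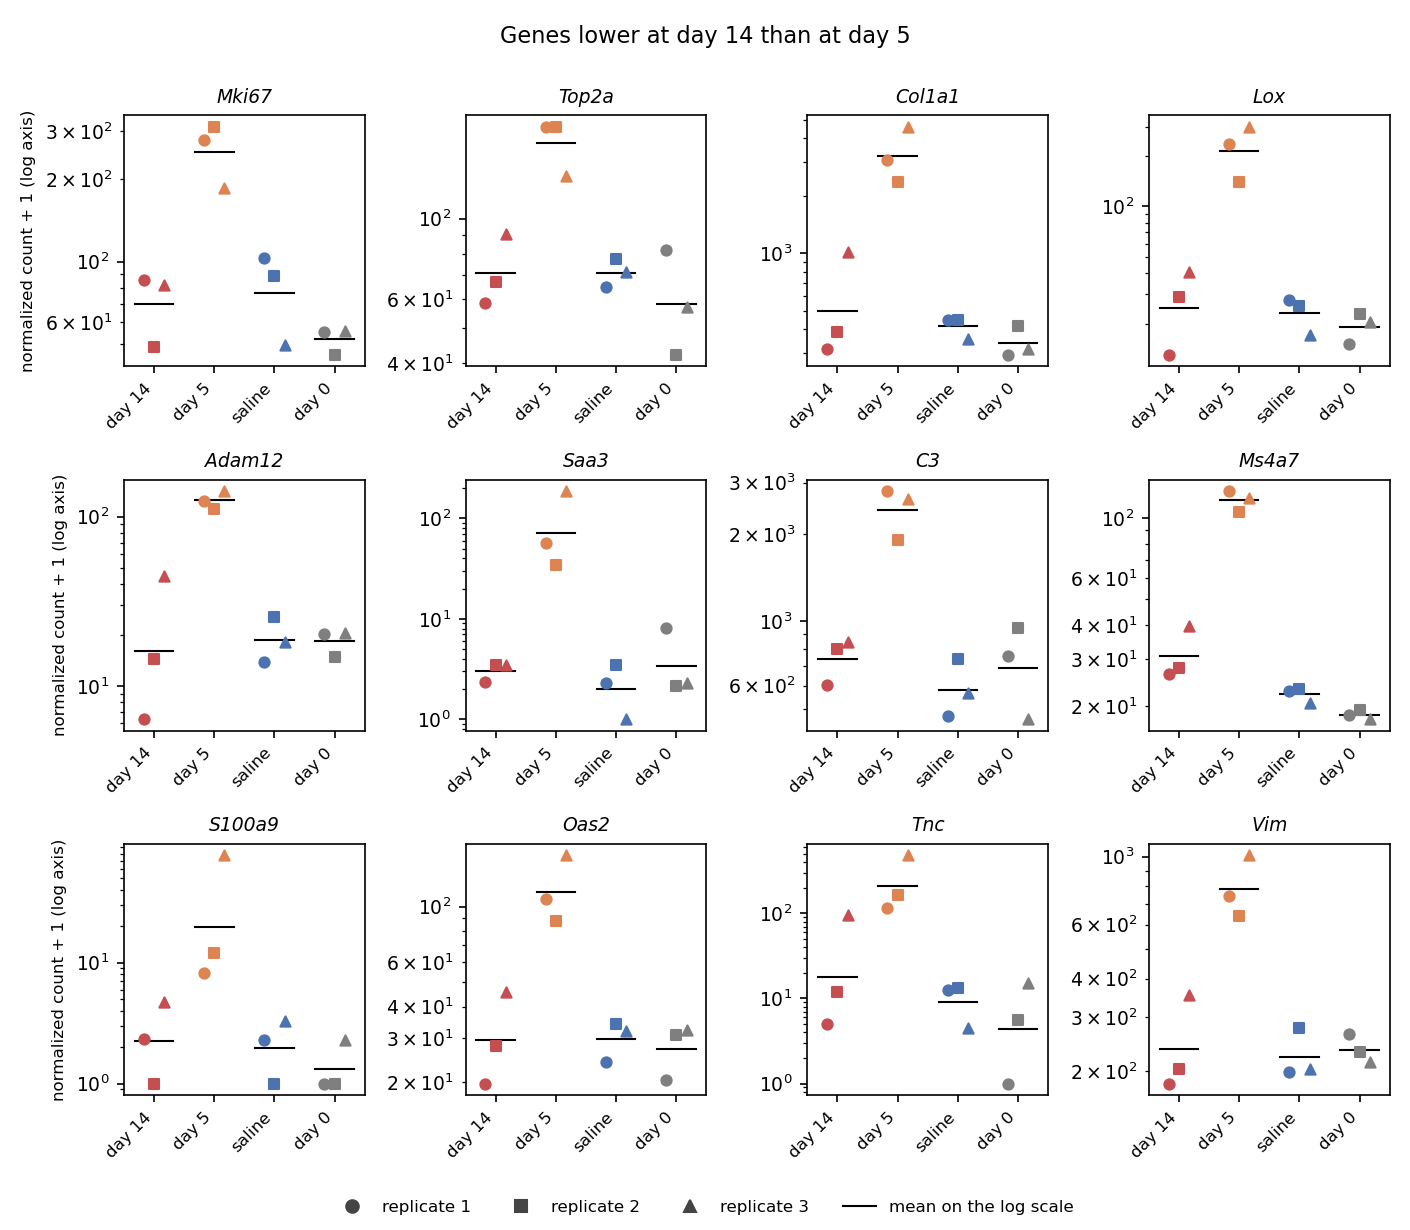
Normalized counts plus 1 (log axis) of 12 genes in each library of the day 14, day 5, day 14 saline (saline) and day 0 groups. Symbols mark the replicate and lines the group mean on the log scale. In every panel the 3 day 14 values lie below the 3 day 5 values, and in *Col1a1*, *Adam12*, *Tnc* and *Vim* day 14 replicate 3 lies above the controls.

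Acute inflammatory genes were lower at day 14. Of 21 acute phase and epithelial defence genes, 10 were lower at day 14 and none was higher (median -1.64). *Saa3* (chr7:46711998-46715700), an acute phase protein induced by IL-1, measured 1.34, 2.44 and 2.49 at day 14, 56.2, 33.4 and 187 at day 5, 1.28, 2.46 and 0 in saline glands and 7.02, 1.14 and 1.30 at day 0. The day 14 values lay inside the range of the controls, and the log2 difference from day 5, the lowest among all genes tested, was -4.56 ± 0.54 (SE; limma, adjusted p = 2.04e-05). *Lcn2*, which withholds iron from bacteria, measured 45.5, 45.1 and 38.6 at day 14 and 243, 82.2 and 231 at day 5 (log2 difference -1.93 ± 0.36, SE; limma, adjusted p = 0.00107), with day 5 replicate 2 lowest in its group but still above day 14. Without day 5 replicate 1 the count of 10 was 6.

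Neutrophil genes were lower at day 14 in 5 of 13 tested members (median -1.80). The list includes *Ltf*, an abundant secretory gene of this gland. *S100a9*, a calcium-binding protein of neutrophils, measured 1.34, 0 and 3.74 at day 14 and 7.23, 11.1 and 76.5 at day 5, with day 5 replicate 3 far above the others (log2 difference -3.15 ± 0.73, SE; limma, adjusted p = 0.00552). *Retnlg*, a resistin-like protein of neutrophils, was listed at 0 in all 3 day 14 libraries and at 8.03, 5.14 and 6.87 at day 5 (limma, adjusted p = 7.24e-04). The summed level of the neutrophil markers *S100a8*, *S100a9* and *Csf3r* was 4.87 to 18.7 at day 14, 35.9 to 179 at day 5, 8.60 to 16.1 in saline glands and 1.75 to 6.50 at day 0. The day 14 range spanned that of saline glands. Without day 5 replicate 2, the lowest of its group in the list median, the neutrophil count was 8.

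Monocyte, macrophage and dendritic genes were lower at day 14 in 20 of 37 tested members and higher in none (median -1.33), and in 28 the groups did not overlap. *Ms4a7*, a membrane protein of macrophages, measured 25.4, 26.8 and 38.6 at day 14, 125, 104 and 118 at day 5, 21.7, 22.1 and 19.6 in saline glands and 17.5, 18.3 and 16.9 at day 0. Its day 14 values stood between the controls and day 5, without touching either range, at a log2 difference from day 5 of -1.92 ± 0.17 (SE; limma, adjusted p = 1.58e-06) and from day 0 of 0.73 ± 0.17 (SE; limma, adjusted p = 0.0182), the last below the 2-fold limit. In 2 of the 37 genes all day 14 values lay above the 6 controls, against 1.71% of all genes. *Csf1r*, the receptor for macrophage colony-stimulating factor, measured 172, 168 and 215 at day 14, 533, 386 and 485 at day 5, 179, 180.4 and 196 in saline glands and 198, 217 and 165 at day 0, so that its day 14 group overlapped both control groups. *Lyz2*, lysozyme of phagocytes, measured 507, 563 and 773 at day 14 and 2597, 1491 and 1897 at day 5 (log2 difference -1.68 ± 0.24, SE; limma, adjusted p = 1.12e-04). Some macrophage genes took another course. Of the 37, 3 were called higher at day 14 than at day 0 and 1 lower, against 1.27% and 0.392% of all genes. The lower gene was *Cd163* (log2 difference -1.22; limma, adjusted p = 0.0121), a call lost without day 14 replicate 1 or day 0 replicate 1. *Gpnmb*, a glycoprotein of lipid-laden macrophages, measured 14.7, 13.4 and 129.6 at day 14, 54.6, 58.2 and 21.5 at day 5, 22.99, 12.3 and 20.7 in saline glands and 1.75, 6.86 and 1.30 at day 0, with day 14 replicate 3 far above the rest. *Mmp12*, macrophage elastase, measured 22.8, 9.75 and 116 at day 14, 45.8, 42.8 and 12.9 at day 5, 26.8, 7.37 and 23.02 in saline glands and 5.26, 3.43 and 2.60 at day 0. Neither was called between day 14 and day 5, whose groups overlapped, and both were called higher at day 14 than at day 0, with log2 differences of 3.07 ± 0.69 and 2.74 ± 0.79 (limma, adjusted p = 0.0137 and 0.0413). Saline glands were also above day 0 for both. Day 14 replicate 3 held the highest value of each gene in the 12 libraries. The call of *Gpnmb* against day 0 was lost without day 0 replicate 1 (limma, adjusted p = 0.0525), and that of *Mmp12* without each library but day 14 replicate 2 (up to 0.176, without day 14 replicate 3).

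Complement was lowered in nearly all of its measured members. Of 20 tested genes, 18 were lower at day 14 than at day 5, none was higher, and the groups did not overlap in 19 (median -1.44). *C3*, the central component, measured 601, 799 and 849 at day 14, 2809, 1904 and 2644 at day 5, 469, 737 and 566 in saline glands and 759.7, 944 and 459 at day 0, a log2 difference from day 5 of -1.70 ± 0.22 (SE; limma, adjusted p = 4.57e-05). The day 14 values overlapped those of the controls. *Cfb*, factor B of the alternative pathway, measured 41.5, 57.3 and 82.3 at day 14 and 399, 207 and 444 at day 5 (log2 difference -2.50 ± 0.36, SE; limma, adjusted p = 1.20e-04). Of the 20 genes, 4 were called lower at day 14 than at day 0 and none higher, against 0.392% of all genes called lower. *Cfd* (complement factor D), also in the list of fat cell genes, was lower than at day 0 (log2 difference -1.36; limma, adjusted p = 0.0037). That call held without each of its 6 libraries in turn and was lost when only the groups compared were fitted. The receptor *C5ar1* also went below the uninjured level. It measured 5.36, 1.22 and 3.74 at day 14, 28.1, 17.97 and 42.1 at day 5, 5.11, 4.91 and 3.45 in saline glands and 8.77, 10.3 and 7.80 at day 0, with log2 differences of -2.83 ± 0.35 from day 5 and -1.29 ± 0.35 from day 0 (limma, adjusted p = 3.11e-05 and 0.0314). Saline glands lay below day 0 as well, and overlapped day 14. The call against day 0 was lost without day 14 replicate 2 (limma, adjusted p = 0.144), day 0 replicate 1 or day 0 replicate 2.

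Interferon-stimulated genes were lower at day 14 in 19 of 48 tested members and higher in none (median -0.92), and in 37 the groups did not overlap. *Oas2*, an oligoadenylate synthetase that senses double-stranded RNA, measured 18.7, 26.8 and 44.9 at day 14, 106, 86.4 and 159 at day 5, 22.99, 33.2 and 31.1 in saline glands and 19.3, 29.7 and 31.2 at day 0, a log2 difference from day 5 of -1.96 ± 0.33 (SE; limma, adjusted p = 3.81e-04). *Isg15*, a ubiquitin-like modifier, measured 14.7, 10.97 and 11.2 at day 14 and 40.2, 38.5 and 46.4 at day 5 (log2 difference -1.69 ± 0.32, SE; limma, adjusted p = 0.00125), and *Irf7*, a transcription factor of the response, measured 66.9, 86.5 and 47.4 at day 14 and 159, 135 and 193 at day 5 (log2 difference -1.29 ± 0.31). Both had separate groups. *Oas1a*, whose reads can be shared with close paralogs, stayed above day 0: it measured 32.9, 42.2 and 52.5 at day 14, 69.5, 56.8 and 96.9 at day 5, 52.5, 29.8 and 24.3 in saline glands and 9.63, 20.5 and 10.98 at day 0. Its log2 difference of day 14 from day 0 was 1.61 ± 0.34 (SE; limma, adjusted p = 0.00862) and from day 5 -0.78 ± 0.34, not called. The antiviral GTPase *Mx1* was also called above day 0 (9.37, 15.8 and 9.97 at day 14, against 3.51, 3.43 and 6.50 in uninjured glands), with saline glands at 15.3, 11.1 and 11.5, a call kept in 1 of 6 left-out libraries. Without day 14 replicate 1 the count of 19 was 12.

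Interferon factors bind an interferon-stimulated response element (ISRE, searched on both strands as GAAA, any 2 bases, GAAA). These letters were present in 19 of 33 promoters found for the interferon list (57.6%) and in 3.04% of all 27025. The promoter of *Oas3*, a paralog of *Oas2*, is printed as an example, chosen after its values were seen, with the element in capitals.
Oas3 (chr5:120777660-120777909, minus strand): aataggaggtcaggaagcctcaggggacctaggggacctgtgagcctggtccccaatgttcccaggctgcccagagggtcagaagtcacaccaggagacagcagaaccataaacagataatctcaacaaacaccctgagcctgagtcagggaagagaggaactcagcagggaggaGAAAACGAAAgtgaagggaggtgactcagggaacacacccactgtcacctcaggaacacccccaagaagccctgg
*Oas3* measured 2.68, 7.31 and 6.23 at day 14, 20.1, 18.8 and 30.9 at day 5, 12.8, 2.46 and 9.21 in saline glands and 1.75, 4.57 and 6.50 at day 0, a log2 difference from day 5 of -1.97 ± 0.49 (SE; limma, adjusted p = 0.00793). Without day 14 replicate 1 its limma adjusted p was 0.0568, and the call was lost. Binding to this promoter was not measured.

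Antigen presentation genes moved by smaller steps. In all 10 tested MHC class II genes the day 14 values lay below the day 5 values, but only 3 passed the 2-fold limit and the test. *Cd74*, the invariant chain, measured 926, 897 and 879 at day 14, 1665, 1268 and 1274 at day 5, 747, 854 and 829 in saline glands and 1021, 922 and 823 at day 0, a log2 difference of -0.63 ± 0.14 (SE; limma, adjusted p = 0.00357). Among 19 class I genes 2 were lower, with *Psmb8*, a subunit of the immunoproteasome, at 40.2, 35.3 and 29.6 at day 14 and 111, 68.5 and 73.9 at day 5 (log2 difference -1.22 ± 0.21, SE; limma, adjusted p = 5.14e-04). The class I count was 1 without day 5 replicate 1 and 4 without day 5 replicate 2. Of 31 cytokines and chemokines, 5 were lower, or 2 without day 5 replicate 1 and 3 without day 5 replicate 3, and 1 was higher. The exception was *Il1a* itself, the gene of the injected cytokine, which measured 13.9, 12.4 and 13.7 at day 14, 4.02, 4.28 and 3.12 at day 5, 4.22, 11.5 and 4.60 in saline glands and 1.98, 4.06 and 3.90 at day 0. The day 14 values were tightly grouped above all other libraries shown, with log2 differences of 1.58 ± 0.42 from day 5, 1.77 ± 0.42 from day 0 and 1.00 ± 0.42 from saline (limma, adjusted p = 0.0128, 0.018 and 0.987). These are low values, and the saline replicate nearest to day 14 stood at 11.5. In 2 of the 31 cytokines and chemokines all day 14 values lay above the 6 controls, against 1.71% of all genes. The call of *Il1a* against day 0 was lost without day 14 replicate 1 and without day 0 replicate 1 (limma, adjusted p up to 0.0771), and the call against day 5 when the 3 libraries the study left out were added. Of 20 tested B and plasma cell genes, 5 were lower at day 14 than at day 5 and none was higher (median log2 difference -0.66). With a day 14 or day 5 library left out, that count was 2 to 4. Against day 0, 2 of the 20 (*Ms4a1* and *Ighm*) were called higher at day 14 and none was called lower (median log2 difference 0.07). *Ms4a1* (CD20) measured 6.69, 7.31 and 7.48 at day 14, 13.7, 38.5 and 19.8 at day 5, 2.55, 4.91 and 4.60 in saline glands, and 0 in all day 0 libraries (day 14 against day 0, limma, adjusted p = 0.00517). Outside the list, the immunoglobulin variable genes *Ighv2-2* and *Iglv1*, whose reads can be shared with paralogs, were called lower at day 14 than at day 0. *Ighv2-2* was listed at 0 in all day 14 libraries, against 72.5, 1.14 and 51.4 at day 0 (limma, adjusted p = 0.0445), and *Iglv1* measured 13.4, 6.09 and 2.49 at day 14 and 168, 34.3 and 23.4 at day 0 (limma, adjusted p = 0.0433). Each kept its call in 1 of 6 left-out libraries, while the call of *Ighm* was lost without day 14 replicate 2 and without day 0 replicate 2.

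Endothelial and pericyte genes were lower at day 14 than at day 5 in 12 of 34 tested members (median -0.77) and higher in none. Against day 0, 5 of the 34 were called higher at day 14 and 1 lower, where 1.27% and 0.392% of all genes were. The call of *Aplnr*, 1 of the 5, was lost without day 14 replicate 3 and without day 0 replicate 3. No member was called against saline. *Vcam1*, the adhesion molecule that captures monocytes and lymphocytes, measured 24.1, 29.2 and 14.96 at day 14, 103, 45.4 and 58.4 at day 5, 22.99, 23.3 and 18.4 in saline glands and 15.8, 12.6 and 29.9 at day 0, a log2 difference from day 5 of -1.52 ± 0.32 (SE; limma, adjusted p = 0.00267). *Selp* (P-selectin, on which leukocytes roll) measured 17.4, 9.16 and 14.2 at day 14, 35.1, 23.96 and 39.5 at day 5, 2.55, 6.14 and 9.21 in saline glands and 3.51, 4.57 and 1.30 at day 0. It was lower than at day 5 (log2 difference -1.23 ± 0.37; limma, adjusted p = 0.0265) and higher than at day 0 (1.87 ± 0.37; limma, adjusted p = 0.00631), while against both control groups together the log2 difference was 1.51 ± 0.32 and missed the threshold (limma, adjusted p = 0.0607). The call against day 5 was lost without day 14 replicate 2 (limma, adjusted p = 0.121), day 5 replicate 1 or day 5 replicate 3, and the call against day 0 held without each of its 6 libraries in turn. *Lyve1*, a hyaluronan receptor of lymphatic vessels and some macrophages, was lower at day 14 than at day 0, at 2.68, 3.66 and 7.48 at day 14, 2.55, 7.37 and 8.06 in saline glands and 26.3, 27.4 and 18.2 at day 0 (log2 difference -2.23 ± 0.44, SE; limma, adjusted p = 0.00648). The endothelial markers *Pecam1* and *Cdh5* summed to 142 to 208 at day 14, 247 to 431 at day 5, 144 to 168 in saline glands and 105 to 149 at day 0. The endothelial count of 12 was 7 when day 14 replicate 1 was left out, and 5 when either day 14 replicate 2 or day 5 replicate 3 was.

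The secretory genes of the gland moved the other way. Of 47 tested lacrimal secretory products, 10 were higher at day 14 than at day 5 and 1, *Lyz2*, was lower (median log2 difference 0.64). In 25 all day 14 values lay above the day 5 values. Among the 10 were *Scgb1b27*, *Prol1*, *Muc19* and *Mucl1*, which were also called higher at day 14 than at day 0 (*Prol1* in only 1 of 6 left-out libraries). The count of 10 is therefore not a count of genes that returned to the uninjured level. In the whole list 5 members were called higher at day 14 than at day 0 and 5 lower. Scaling to totals lowered the median to 0.13 and left 6 higher and 3 lower, and leaving out each library in turn gave 7 to 12 higher. The count without day 14 replicate 2, like that without day 5 replicate 1, was 7. *Pnliprp1*, a pancreatic lipase-related protein and an abundant transcript of the gland, measured 54133, 55551 and 53098 at day 14, 25278, 19449 and 17500.0 at day 5, 69349, 79668 and 52464 in saline glands and 88867, 52499 and 80218 at day 0. The day 14 values were close together, more than the day 5 values, and overlapped the controls, with a log2 difference from day 5 of 1.41 ± 0.27 (SE; limma, adjusted p = 0.00155). *Esp36*, of the exocrine gland-secreted peptides, measured 4995, 8297 and 4563 at day 14 and 2017, 2496 and 2635 at day 5 (log2 difference 1.28 ± 0.29, SE; limma, adjusted p = 0.00433), and *Mup4*, a pheromone carrier, 7242, 6502 and 7131 at day 14 and 3570.4, 3539.9 and 2801 at day 5 (log2 difference 1.08 ± 0.17, SE; limma, adjusted p = 2.32e-04). Reads of these 2 families can be shared between near-identical copies. None of *Pnliprp1*, *Esp36* and *Mup4* remained called when libraries were scaled to totals, and *Mup4* fell short of the 2-fold limit without day 5 replicate 3. *Ltf* (lactoferrin) did not follow, at 8670.1, 8335 and 7844 at day 14, 11437, 11379.9 and 9368 at day 5, 10246, 9373 and 10149 in saline glands and 8278, 8501 and 8503 at day 0.

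Some secretory genes had not returned to the uninjured level. *Scgb2b20*, a secretoglobin with close paralogs, measured 10793, 1186 and 7651 at day 14, 3636, 6891 and 5601 at day 5, 6849, 1842 and 5208 in saline glands and 22184, 55548 and 14839.5 at day 0. It was not called between day 14 and day 5, whose groups overlapped, and was lower at day 14 than at day 0 (log2 difference -2.52 ± 0.66, SE; limma, adjusted p = 0.0271), with saline glands as low as day 14 glands. Its neighbour *Scgb1b20* had the same pattern (log2 difference from day 0 -2.52 ± 0.63). Both calls were lost without day 14 replicate 2 (limma, adjusted p = 0.134 for *Scgb2b20* and 0.109 for *Scgb1b20*), day 0 replicate 1 or day 0 replicate 2. The machinery of the acinar cell differed little. None of 28 tested genes of acinar transcription and secretion was called between day 14 and day 5 (median 0.08, or -0.49 when scaled to totals), and the 95% interval of day 14 minus saline lay within 2-fold for 26 of the 28. *Bhlha15* (MIST1, the transcription factor of secretory cells) measured 6353, 6293 and 6073 at day 14, 5247, 5215 and 4891 at day 5, 6322, 6499 and 6588 in saline glands and 7048, 8142 and 6566 at day 0, at nearly the same level at day 14 as in saline glands. The water channel *Aqp5* measured 1916, 1732 and 1811 at day 14, 1810.1, 1809 and 1785 at day 5, 1955, 1949 and 2202 in saline glands and 2262, 2104 and 2193 at day 0. Among 30 basal, ductal and myoepithelial genes 3 were lower, or 1 without day 5 replicate 1 and 5 without day 5 replicate 2, and none was higher. *Krt14*, a keratin of basal and myoepithelial cells, measured 115, 98.7 and 138 at day 14, 353, 207 and 243 at day 5, 147, 136 and 117 in saline glands and 109, 128 and 99.7 at day 0 (log2 difference from day 5 -1.16 ± 0.16, SE; limma, adjusted p = 7.08e-05). Without day 5 replicate 1 *Krt14* fell short of the 2-fold limit. *Acta2*, the smooth muscle actin of myoepithelial cells, was not called, at 546, 494 and 523 at day 14 and 665, 591 and 664 at day 5.

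In a group of secretory genes, some of them counted among the 10 above, the day 14 values lay above all those of day 5, saline and day 0. None was called against saline alone. In the list of 47, 4 members had all day 14 values above the 6 controls, against 1.71% of all genes. *Scgb2b26* (chr7:33943002-33945040) measured 649.9, 138 and 72.3 at day 14, 4.82, 5.99 and 4.30 at day 5, 49.8, 19.7 and 17.3 in saline glands and 15.8, 4.57 and 7.80 at day 0. Its lowest day 14 value was above the highest control, and the log2 differences were 4.97 ± 0.73 from day 5 and 3.57 ± 0.63 from both controls together (limma, adjusted p = 1.32e-04 and 0.0222). *Scgb1b27*, its neighbour on chromosome 7, measured 995, 249 and 137 at day 14, 3.21, 1.71 and 16.3 at day 5, 86.8, 42.99 and 44.9 in saline glands and 24.6, 1.14 and 7.80 at day 0, a log2 difference from day 5 of 5.80 ± 1.21 (SE; limma, adjusted p = 0.00265). The mucin gene *Muc19* measured 57.6, 20.7 and 9.97 at day 14, 0, 0.856 and 0 at day 5, 3.83, 0 and 0 in saline glands and 0, 1.14 and 0 at day 0, a log2 difference from both controls of 4.03 ± 0.65 (SE; limma, adjusted p = 0.0151). *Mucl1*, a small mucin-like protein, measured 48.2, 25.6 and 13.7 at day 14, 0, 0 and 1.72 at day 5, 10.2, 2.46 and 2.30 in saline glands, and was listed at 0 in each day 0 library (against both controls, limma, adjusted p = 0.0151). *Klk1b26*, a glandular kallikrein with close paralogs, measured 42.8, 15.8 and 7.48 at day 14 and 3.83, 1.23 and 0 in saline glands and was listed at 0 in all day 5 and day 0 libraries (against both controls, limma, adjusted p = 0.0291). Day 14 replicate 1 was highest in each of these 5 genes and day 14 replicate 3 lowest. Between day 14 and both controls 8 genes (0.0581%) were called. Higher were 5 (0.0363%), namely *Muc19*, *Klk1b26*, *Mucl1*, *Scgb2b26* and an unnamed gene, and lower were 3 (0.0218%). *Irs2*, described below, was among the lower genes (log2 difference -1.59; limma, adjusted p = 0.0257), although its day 14 and saline groups overlapped. A call against the mean of both controls therefore need not be a difference from each of them. Leaving out day 14 replicate 1 gave a count of 0, and leaving out day 14 replicate 2 gave 27. Among the controls the count was 16 when day 0 replicate 3 was dropped, 4 when saline replicate 2 was, and 13 when saline replicate 3 was. By the unadjusted limma p, 1561 genes were under 0.05 without day 14 replicate 1. The parotid markers of the day 14 libraries ran in the same order as these genes, with *Bpifa2* at 214221, 15744 and 1029.6. At day 5 *Bpifa2* was 2922, 209 and 131612, *Scgb1b27* 3.21, 1.71 and 16.3, and *Muc19* 0, 0.856 and 0. Among salivary glands only parotid markers were summed. The part of neighbouring salivary tissue in these differences was not tested.

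**Figure D3:**
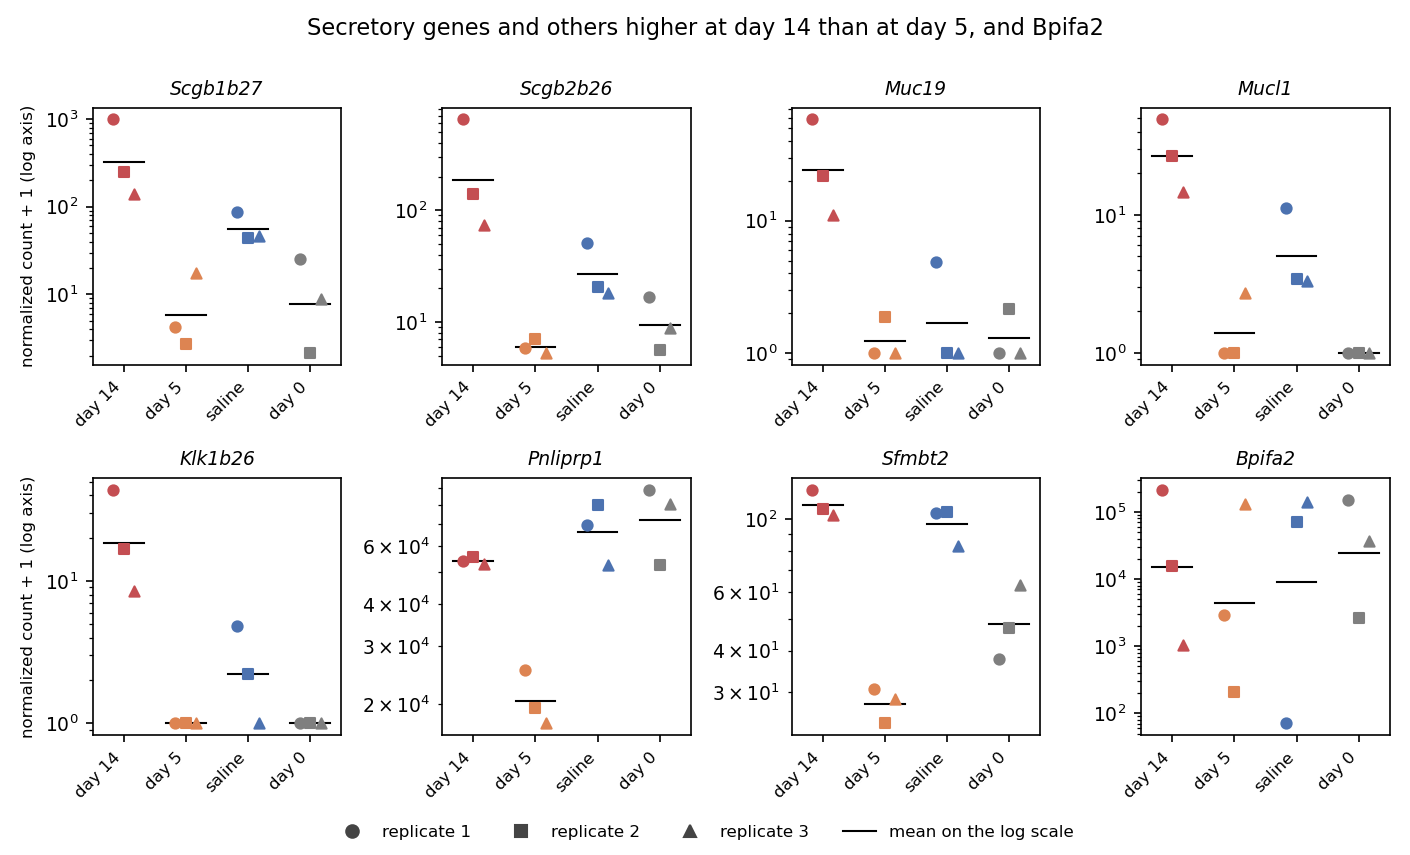
Normalized counts plus 1 (log axis) of 7 genes higher at day 14 than at day 5, and of the parotid marker *Bpifa2*, in each library of the day 14, day 5, day 14 saline (saline) and day 0 groups. Lines are group means on the log scale. *Pnliprp1* at day 14 overlaps the controls, *Scgb2b26*, *Muc19*, *Mucl1* and *Klk1b26* lie above all controls in the order replicate 1, 2, 3, and *Bpifa2* varies widely within each group.

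*Sfmbt2*, a polycomb group gene outside the secretory lists, rose with a call against day 5 under every alternative. It measured 122, 106 and 102 at day 14, 29.7, 23.1 and 27.5 at day 5, 103, 104 and 81.7 in saline glands and 36.8, 45.7 and 62.4 at day 0, a log2 difference of 2.00 ± 0.22 from day 5 and 1.20 ± 0.22 from day 0 (limma, adjusted p = 1.23e-05 and 0.00509). Day 14 and saline glands overlapped and both lay above day 0. Genes of the muscle program that the study stained in injected glands, those of desmin, β-taxilin, the ryanodine receptor of skeletal muscle and sarcalumenin, split by mouse at day 14. *Des* (desmin) measured 68.3, 8.53 and 117 at day 14, 16.9, 35.1 and 24.9 at day 5, 11.5, 11.1 and 26.5 in saline glands and 12.3, 3.43 and 10.4 at day 0. *Txlnb* measured 16.1, 1.22 and 17.5 at day 14 and 0, 2.57 and 1.72 at day 5, *Ryr1* 74.97, 1.22 and 94.7 at day 14 and 2.41, 22.3 and 0.859 at day 5, and *Srl* 41.5, 3.66 and 38.6 at day 14 and 4.02, 12.8 and 1.72 at day 5. Replicates 1 and 3 of day 14 were high and replicate 2 was at the control level in all 4, and none was called between day 14 and day 5. *Des* was called higher at day 14 than at day 0 (log2 difference 2.29 ± 0.62, SE; limma, adjusted p = 0.0304), and the call was lost without day 14 replicate 1, day 14 replicate 3 (0.135) or day 0 replicate 2. The creatine kinase *Ckm* of striated muscle fibres followed the same libraries, with 357, 13.4 and 249 at day 14 and 4.02, 97.4 and 12.9 at day 5. In the list of 34 skeletal muscle genes 2, *Mb* (myoglobin) and *Ldb3*, were called higher at day 14 than at day 5, and both calls were lost without day 14 replicate 1, day 14 replicate 3, day 5 replicate 1 or day 5 replicate 3. Of the 34, 33 were above all 6 controls in day 14 replicate 1, 2 in replicate 2 and 33 in replicate 3. The part of striated muscle around the gland was not tested.

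Set against the saline glands of the same day, no gene was called by limma (0 of 13762; 682 had an unadjusted p under 0.05), and no list had a called member. The 95% interval of day 14 minus saline lay within 2-fold for 10720 genes (77.9%). The shares were lower in several repair lists: 20 of 31 collagen genes (64.5%), 16 of 28 matricellular genes (57.1%), 24 of 37 macrophage genes (64.9%), 14 of 20 complement genes (70%) and 34 of 48 interferon-stimulated genes (70.8%), and lower still in 12 of 31 cytokines and chemokines (38.7%), 7 of 21 acute phase genes (33.3%), 2 of 13 neutrophil genes (15.4%) and 1 of 12 T and NK cell genes (8.33%), while it was 17 of 19 for MHC class I genes (89.5%). In the remaining genes, a 2-fold difference from saline was not resolved with 3 mice a group. Against uninjured glands, 229 genes were called (1.66%), of which 175 were higher at day 14 (1.27%) and 54 were lower (0.392%). The count rested on single libraries: it became 120 without day 14 replicate 1 and 110 without day 0 replicate 1, and 12 when the spread was estimated in the compared groups alone. *Irs2*, an adaptor of the insulin receptor, kept its call under all of these. It measured 48.2, 39.00 and 41.1 at day 14, 116, 83.9 and 84.2 at day 5, 42.1, 39.3 and 50.7 in saline glands and 302, 765 and 246 at day 0, a log2 difference from day 0 of -3.14 ± 0.33 (SE; limma, adjusted p = 4.00e-05) and from saline of -0.04 ± 0.33 (limma, adjusted p = 1). The day 14 and saline groups overlapped.

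**Figure D4:**
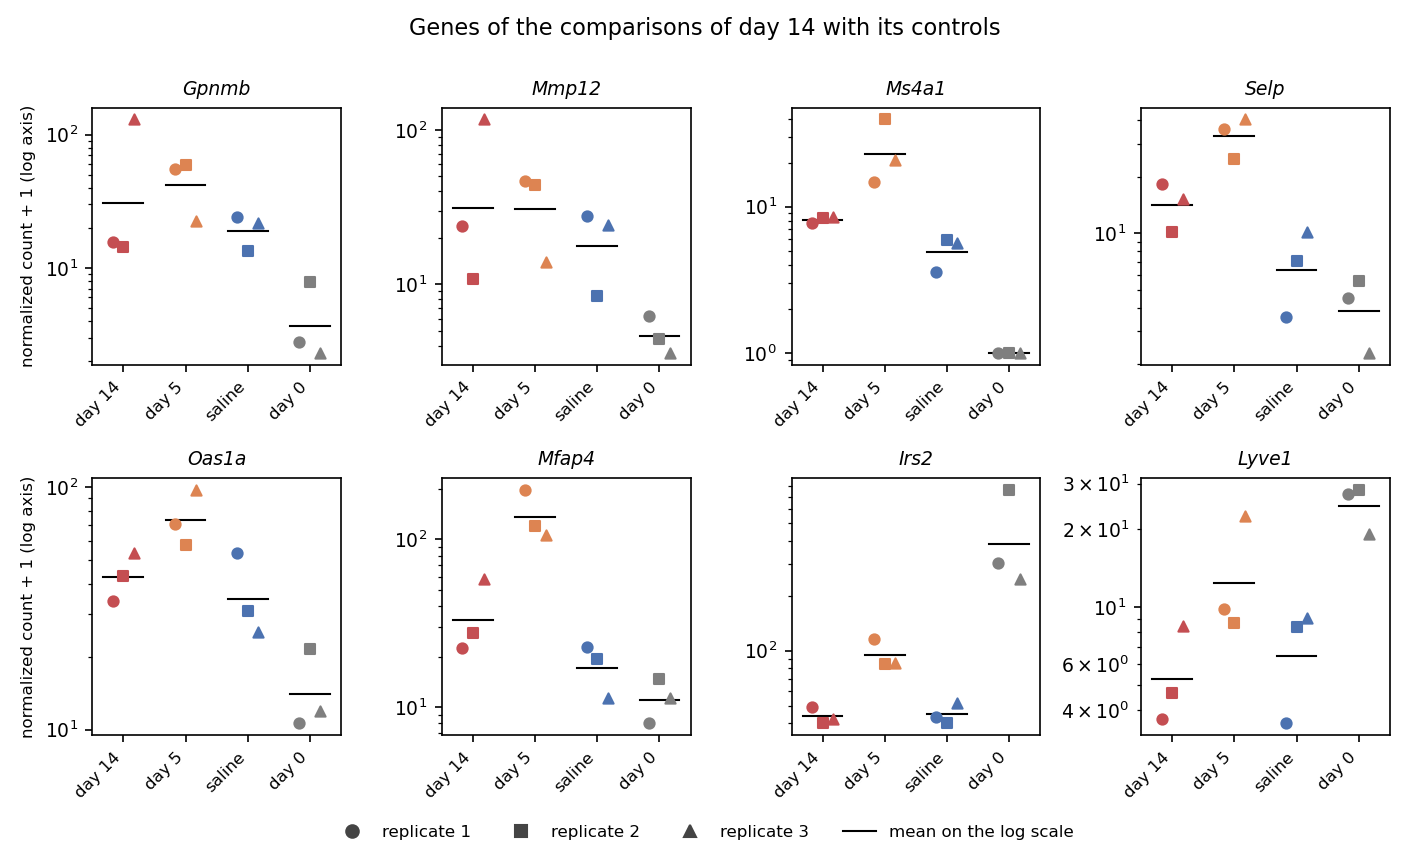
Normalized counts plus 1 (log axis) of 8 genes called between day 14 and day 0 in each library of the day 14, day 5, day 14 saline (saline) and day 0 groups, with group means on the log scale. In *Gpnmb*, *Mmp12*, *Oas1a*, *Irs2* and *Lyve1* the day 14 and saline values overlap, the *Ms4a1* values at day 14 lie above those of saline glands, and for *Selp* 2 of the 3 day 14 values lie above all saline values.

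The day 14 mice did not stand at the same point. The median of each list in each library was set against the mean of the 6 controls. For collagen chains it was 0.02, 0.02 and 0.59 in day 14 replicates 1, 2 and 3, against 1.17 to 1.52 in the day 5 replicates. The same library stood out for elastic fibre genes (-0.03, 0.08 and 0.61), matricellular genes (-0.20, 0.00 and 0.57), collagen maturation (-0.32, -0.22 and 0.52) and neutrophil genes (-0.08, -0.10 and 0.97). Of 31 collagen genes, 2, 6 and 20 were above all 6 controls in day 14 replicates 1, 2 and 3, where 14.6%, 12.7% and 15% of all genes were. For proteases the counts were 3, 2 and 19 of 38, and for matricellular genes 3, 4 and 18 of 28. In the medians of acute phase genes (0.06, 0.00 and 0.00), MHC class II genes (0.11, -0.01 and 0.06) and interferon-stimulated genes (0.22, 0.32 and 0.19) this library was not the highest of the day 14 glands. By the count of members above all 6 controls it was the highest for acute phase genes (5, 3 and 6 of 21). It was not for MHC class II genes (1, 3 and 2 of 10) or interferon-stimulated genes (5, 8 and 7 of 48). On the first principal component of all 26 libraries, day 14 replicate 3 lay at -20.0, between the other day 14 libraries (-38.8 and -37.6) and the day 5 libraries (8.46 to 17.4). With this library left out, 21 of 31 collagen genes were lower at day 14 than at day 5, in place of 17. The parotid markers were lowest in this library among the day 14 glands, the lymph node markers were highest and the muscle markers were high. The part of dissection in its matrix values was not tested.

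**Figure D5:**
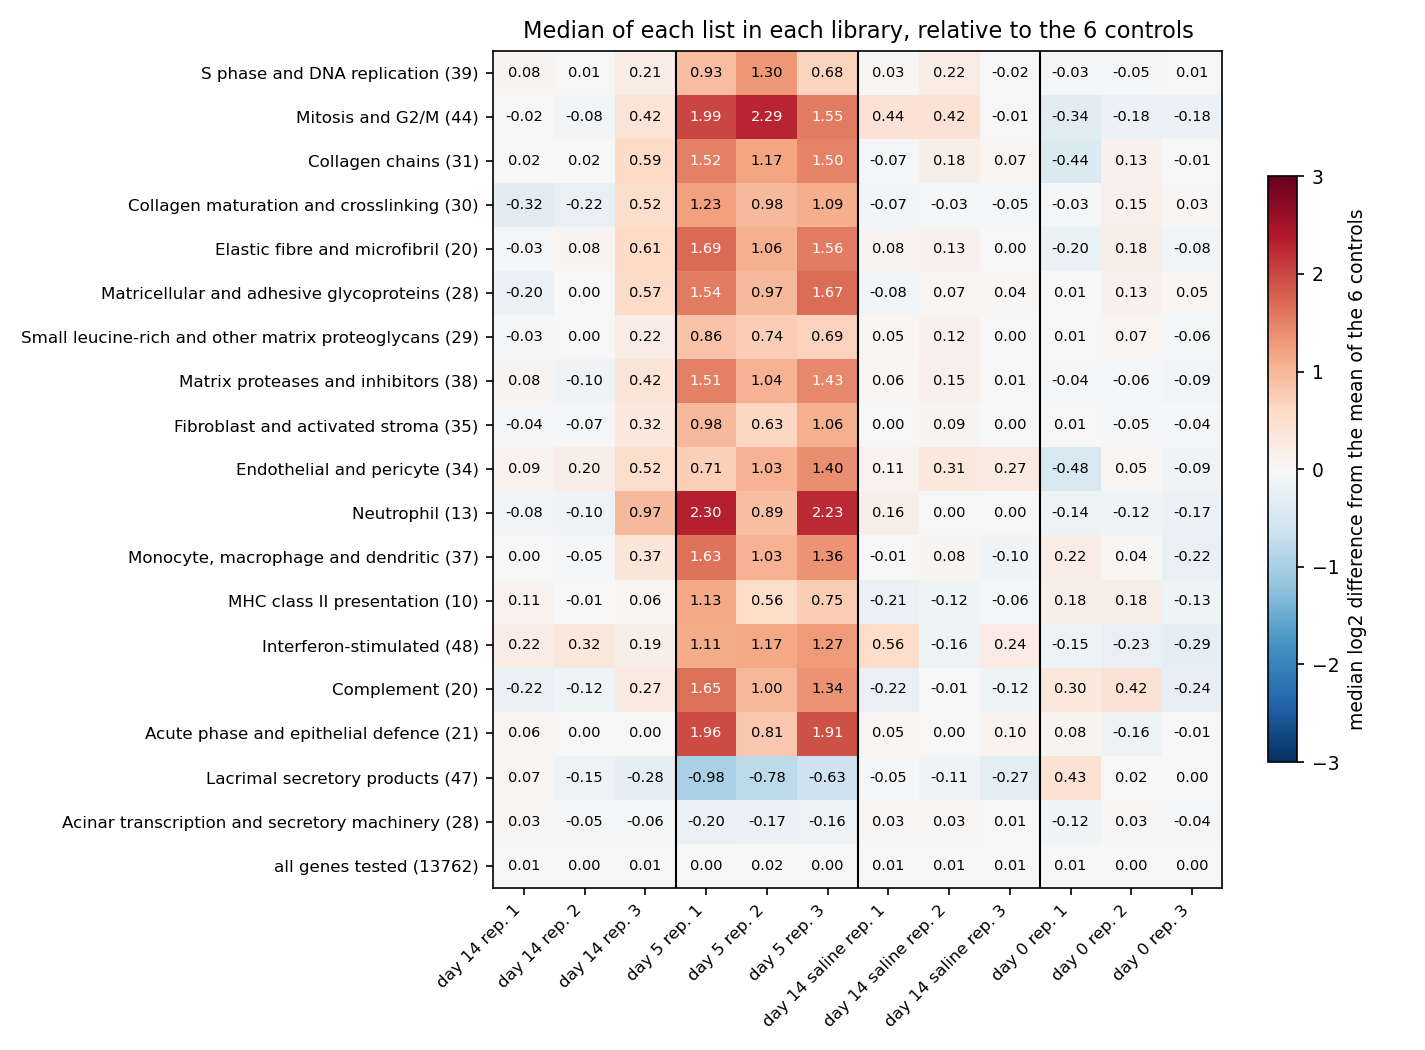
Median log2 difference of each gene list (tested members in parentheses) from the mean of the 6 control libraries, in each library of the day 14, day 5, day 14 saline and day 0 groups. Red is above and blue below the controls. Collagen, elastic fibre, matricellular and neutrophil lists are raised in day 14 replicate 3 (0.59, 0.61, 0.57 and 0.97) and between -0.20 and 0.08 in replicates 1 and 2, and the acute phase list is at 0.06 or below in all 3.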

How the data were processed

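PolyA RNA of each gland was sequenced from stranded libraries. Per the labels and the methods of the study, reads were aligned to mm10 with STAR, quantified with RSEM as estimated counts, and normalized with DESeq2. The deposited table holds 43346 genes in 26 libraries as a normalized signal, each estimated count divided by a single size factor per library, so the values are not counts and no count test was run. A labelled day 7 sample has no column and was not analysed here. Versions are not given in the sources used here.

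The test was limma 3.58.1 (R 4.3.3) on log2(value + 1), in a fit over 9 groups and 23 libraries. The 3 libraries the study left out (day 2 replicate 3, day 4 replicate 1, day 7 replicate 1) were also left out here. A gene was tested where 2 or more of these libraries reached a value of 10 (13762 genes), with a trend of variance on level and 14 residual degrees of freedom. Names come from GENCODE M21 and 42462 IDs were named. Day 14 was compared with day 5, day 14 saline, day 0 and the mean of both controls. Alternatives were all libraries, only the groups compared, a pseudocount of 0.1, no filter, a filter at 50, scaling to totals or to the upper quartile, the adjusted p alone, no variance trend, a replicate block and each library left out. The script was tested on simulated data. The groups, gene lists and printed promoters were chosen with earlier results of these data known. The named genes are, for day 14 against day 5, the 12 up and 12 down with the largest fold among called genes with separate groups, without predicted genes and pseudogenes, the 5 up and 5 down against each control by the same rule, up to 4 called members, all called members of the opposite direction and up to 2 abundant uncalled members of each list, and genes the study names, from which the text draws those that matter. The following were chosen after their values were seen: *C3*, *Cdk1*, *Ckm*, *Csf1r*, *Esp36*, *Fkbp5*, *Gpnmb*, *Ighm*, *Irf7*, *Isg15*, *Lyve1*, *Mcm5*, *Mki67*, *Mmp12*, *Ms4a1*, *Mup4*, *Mx1*, *Oas1a*, *Pdgfra*, *Pnliprp1*, *Scgb2b20*, *Selp*, *Snai2*, *Timp3* and *Top2a*. RSEM divides reads between near-identical genes, so single members of the Scgb, Esp, Klk1b, Mup, Oas and immunoglobulin variable families are uncertain. Depth was 9.48 to 13.1 M (1e+06) estimated counts over all libraries.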

Additional observations from a re-analysis of the deposited data

How the results depend on the processing

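Day 14 against day 5 gave 554 calls with a filter at 50, 2449 when libraries were scaled to totals (1.67% of them higher, against 11.4%) and 2393 by the adjusted p alone (42.7% higher), where the main count was 901, and 622 to 1059 with a library left out. Day 14 against saline gave 2 calls with no filter and 0 to 3 with a library left out. Day 14 against day 0 gave 12 calls when only the groups compared were fitted, 124 with a filter at 50 and 953 by the adjusted p alone, where the main count was 229, and 110 to 319 with a library left out; scaled to totals 91.8% of 330 calls were higher, against 76.4%. Day 14 against both controls gave 8 calls, and 0 with all libraries or only the groups compared, 5 with a pseudocount of 0.1, 2 with a filter at 50, 19 by the adjusted p alone, and 0 to 27 with a library left out. Day 5 against day 0 gave 757 calls with a filter at 50, 4476 scaled to totals and 3963 by the adjusted p alone, where the main count was 1429, and 1147 to 1458 with a library left out. Filters changed the number of genes tested, and otherwise the cause was not tested.

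Same-numbered replicates of day 14 and day 5 did not deviate together (r = -0.12, -0.12 and -0.14 across genes, which are not independent), so the numbers were not taken as pairs. A replicate block gave 902 calls for day 14 against day 5, 0 against saline, 262 against day 0, 8 against both controls and 1438 for day 5 against day 0. No named gene reversed in any alternative, and of 123 named genes with a call 76 kept it in every alternative. With 3 mice a group, genes near 0 had wide intervals.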

Other observations

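Genes that respond to glucocorticoids and fasting were lower at day 14 than at day 5 in 6 of 22 tested members, and lower than at day 0 in 5, with none higher in either comparison. *Zbtb16*, a transcription factor induced by glucocorticoids, measured 30.8, 78.00 and 71.1 at day 14, 252, 333 and 259.5 at day 5, 26.8, 27.02 and 43.7 in saline glands and 19.3, 59.5 and 50.7 at day 0. All day 5 values were above all others, and the log2 difference of day 14 from day 5 was -2.31 ± 0.35 (SE; limma, adjusted p = 1.89e-04). *Fkbp5*, a co-chaperone of the glucocorticoid receptor, measured 102, 133 and 299 at day 14, 552, 419 and 334 at day 5, 165, 205 and 134 in saline glands and 291, 319 and 383 at day 0, and was lower at day 14 than at both day 5 and day 0 (log2 differences -1.41 ± 0.27 and -1.04 ± 0.27; limma, adjusted p = 0.00143 and 0.027). The call of *Fkbp5* against day 0 held in 2 of 6 left-out libraries and was lost without day 14 replicate 1 (0.131), day 14 replicate 2, day 0 replicate 1 or day 0 replicate 3. *Angptl4*, an inhibitor of lipoprotein lipase that rises in fasting, measured 13.4, 7.31 and 11.2 at day 14, 44.97, 53.9 and 62.7 at day 5, 24.3, 25.8 and 12.7 in saline glands and 43.9, 20.6 and 27.3 at day 0 (log2 difference from day 5 -2.26 ± 0.31; limma, adjusted p = 6.80e-05). Among 19 circadian clock genes 1 was lower at day 14 than at day 5, *Per2*, with 17.4, 20.7 and 31.2 at day 14 and 87.5, 48.8 and 61.9 at day 5 (log2 difference -1.48 ± 0.29; limma, adjusted p = 0.00179). The hour of collection is not given in the sources used here, and its part in these genes was not tested.

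None of 35 genes of endoplasmic reticulum folding, 35 of sterol and fatty acid synthesis or 38 nuclear genes of oxidative phosphorylation was called between day 14 and day 5. Their medians were 0.02, -0.05 and 0.11. The 95% interval of day 14 minus saline lay within 2-fold for all 35 folding genes and all 38 oxidative phosphorylation genes. For sterol and fatty acid synthesis it did so in 27 of 35 (77.1%), against 77.9% of all genes. Against day 0 the folding, sterol and oxidative phosphorylation medians were -0.27, 0.16 and -0.24. None of 30 genes of amino acid supply and the ATF4 program was called against day 5, saline or day 0. The medians were 0.02, -0.21 and -0.35. In 5 of the 30 all day 14 values lay below all saline and day 0 values, against 1.71% of all genes. The list summed to 14075 to 15934 at day 14 and 14094 to 15052 at day 5. Saline glands had 16679 to 18697 and day 0 glands 18551 to 21611.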
